A study of Homo sapiens with 24 samples.

Results

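MDA-MB-231 cells that had passed through mitotic slippage were compared with the parental MDA-MB-231 population across every gene with enough counts to test. The comparison held 6 of the 24 libraries of the series, 3 from the slippage-derived population and 3 from the parental control, and was chosen by the sample labels alone. MDA-MB-231 is an established human line of triple-negative breast cancer with mesenchymal features. The parental population is aneuploid, per the labels, and was kept in culture as the control, whereas the slippage-derived cells had doubled their genome, had been isolated by flow sorting and had been expanded. The labels do not say that the controls were sorted, do not name the agent used for slippage, and describe 1 derived population per route with 3 biological replicates, without saying how a replicate was made. The p-values below therefore measure the spread between samples of 1 slippage-derived population, and not between populations derived anew. All groups were seeded in the same way and grown for 48 hours without further treatment before RNA was read by TAGseq, a sequencing method that counts the 3′ ends of polyadenylated transcripts. MDA-MB-231 cells doubled by cell fusion or by failed cytokinesis (3 libraries each) and the slippage and control groups of HCC1806, a second triple-negative line with basal epithelial features (3 libraries each), are used where they show whether a difference was shared.

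In mitotic slippage, a cell held in mitosis by the spindle checkpoint leaves it as cyclin B is slowly degraded, without separating its chromosomes or dividing, and enters G1 with a doubled genome and extra centrosomes. Such cells often arrest through the CDK inhibitor p21, encoded by CDKN1A, and through LATS2 of the Hippo pathway. Doubled cells are known to rely on the mitotic kinesin KIF18A. A population expanded after slippage holds the cells that kept dividing.

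The 6 libraries held 3204409 to 3800583 estimated counts each and 14607 to 14850 detected genes. Slippage replicate 3 differed more from its 2 replicates (2.26 to 2.43, as chi-square over its degrees of freedom) than those did from each other (1.55), and the control pairs ranged up to 1.67. Cytokinesis failure replicate 1 stood apart in the same way (2.42 to 2.45). On the second principal component of the 12 MDA-MB-231 libraries (11.5% of the variance), the controls lay at 11.7 to 19.4 and the slippage libraries at -6.00, -2.91 and -16.8, the last being replicate 3. The 12 markers of the MDA-MB-231 line summed to 8254 to 8369 CPM in control and 8691 to 9009 CPM in slippage. Of the 11 with enough counts to test, 4 were called higher and 1 lower, against 3.27% and 2.91% of all tested genes. The 13 markers of HCC1806 summed to 373 to 405 CPM in control and 406 to 426 CPM in slippage. Of these, 4 had enough counts to test and 1 was called higher. The basal keratins KRT6A, KRT14, KRT16 and KRT17 among them were at 0 in every library of both groups. Here CPM are library-scaled counts after edgeR's trimmed mean of M-values (TMM). Among 12 markers of immune cells, CD68 was the single one with enough counts to test, and CD3E, MS4A1, ITGAM, NKG7 and TYROBP were at 0 in both groups. None of the 10 fibroblast markers had enough counts to test. In bulk RNA, fewer cells with a transcript and less of it per cell cannot be told apart.

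Slippage-derived cells differed from control in 706 of 11424 tested genes (6.18%), 373 of them higher (3.27%) and 333 lower (2.91%). A gene was called where the adjusted p was below 0.05 in edgeR's quasi-likelihood test with Benjamini-Hochberg adjustment, fitted on all 12 MDA-MB-231 libraries, and fold changes are log2 values, each given ± its standard error. Most differences were small, with a median size of 0.34 among the called genes and 42 of them changed by at least 2-fold. The 3 libraries of one group lay wholly above or below those of the other in 697 of the 706 called genes, and in 24.3% of all tested genes. Leaving out slippage replicate 3 gave 456 calls (3.94%; 2.11% higher and 1.83% lower), leaving out slippage replicate 2 gave 442, and leaving out control replicate 1, 2 or 3 gave 398, 370 and 409. The calls kept without every one of the 6 libraries in turn numbered 227, and 107 had an adjusted p below 0.05 in all 16 alternatives. Both counts leave out genes for which any of these fits gave no adjusted p, as DESeq2 did for 129 of the 706. DESeq2, which gave an adjusted p for 6551 genes, called 343 (5.24%, with 2.81% higher and 2.43% lower).

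Among the 30 lead genes, the 15 called genes of largest fold change in each direction among those whose average level (log2 CPM) reached 2 and whose libraries did not overlap, the membrane protein TMEM154, the collagenase MMP1, the class II antigen chain HLA-DRA and the protease inhibitor SERPINA1 rose most, while the epidermal barrier protein FLG (filaggrin), the complement regulator C4BPB and the activin subunit INHBB fell most among those whose calls held under every alternative. TMEM154 (chromosome 4, 152618628 to 152679997 on GRCh38) stood at 3.16, 1.88 and 1.63 CPM in control replicates 1, 2 and 3 and 8.51, 9.63 and 10.5 CPM in slippage replicates 1, 2 and 3. Every slippage library was above every control library, and the difference was 2.09 ± 0.30 (adjusted p = 4.94e-06). SERPINA1, the alpha-1 antitrypsin gene, stood at 7.18, 3.75 and 4.06 CPM in control and 17.6, 15.9 and 16.2 CPM in slippage and rose by 1.72 ± 0.23 (adjusted p = 1.44e-06). MMP1, which cleaves fibrillar collagen, stood at 1.15, 1.56 and 1.35 CPM in control and 8.2, 3.65 and 6.02 CPM in slippage and rose by 2.09 ± 0.38 (adjusted p = 0.000273). Its slippage libraries ranged more widely than those of TMEM154 or SERPINA1 but did not reach the controls. The average level by which MMP1 was admitted includes the fusion libraries, where it read 19.8 ± 1.51 CPM (mean ± SD). CORO2B, an actin-binding coronin, rose by 1.45 ± 0.35. The aldo-keto reductase AKR1C2 rose by 1.39 ± 0.26, but shares near-identical sequence with its neighbours AKR1C1 and AKR1C3 and is therefore uncertain.

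FLG (chromosome 1, 152302165 to 152325239) stood at 29.3, 30.7 and 34.4 CPM in control replicates 1, 2 and 3 and 11.9, 13 and 11.1 CPM in slippage replicates 1, 2 and 3. The libraries of the groups did not overlap, and the difference was -1.38 ± 0.15 (adjusted p = 2.00e-08). C4BPB (chromosome 1, 207088860 to 207099993), the beta chain of C4b-binding protein, had 86.2, 74.5 and 74.2 CPM in control and 30.1, 34.6 and 36.4 CPM in slippage and differed by -1.21 ± 0.11 (adjusted p = 2.08e-10). INHBB (chromosome 2, 120346136 to 120351803), which forms activin B and inhibin B, had 52.3, 51 and 50.1 CPM in control and 19.1, 27.1 and 21.7 CPM in slippage and differed by -1.16 ± 0.13 (adjusted p = 5.49e-08). In each of the 3 genes the highest slippage library was below the lowest control library. The sushi domain protein SUSD3 differed by -1.02 ± 0.20. The calls of these 4 genes, like those of TMEM154, MMP1, HLA-DRA, SERPINA1, CORO2B, AKR1C2 and CD74, held under all alternatives that gave an adjusted p. Those of CMKLR1, the chemerin receptor (1.20 ± 0.24), ADAMTS9, a matrix metalloprotease (1.19 ± 0.27), and TNC, the matrix glycoprotein tenascin-C (1.18 ± 0.24), were lost in limma on TPM only. The other 16 lead genes each lost their call without at least 1 library, among them the G-protein-coupled receptor GPR160 (1.42 ± 0.35; adjusted p = 0.114 without slippage replicate 3, 0.0829 without control replicate 3 and 0.0752 without control replicate 2), the natural killer receptor gene KLRC2 (1.37 ± 0.36; 0.0591 without slippage replicate 3, 0.0615 without slippage replicate 2, 0.0565 without control replicate 3 and 0.108 without control replicate 2) and the activin receptor ACVR2A (-0.81 ± 0.25; 0.0651 to 0.184 without each of the 6 libraries).

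**Figure D1:**
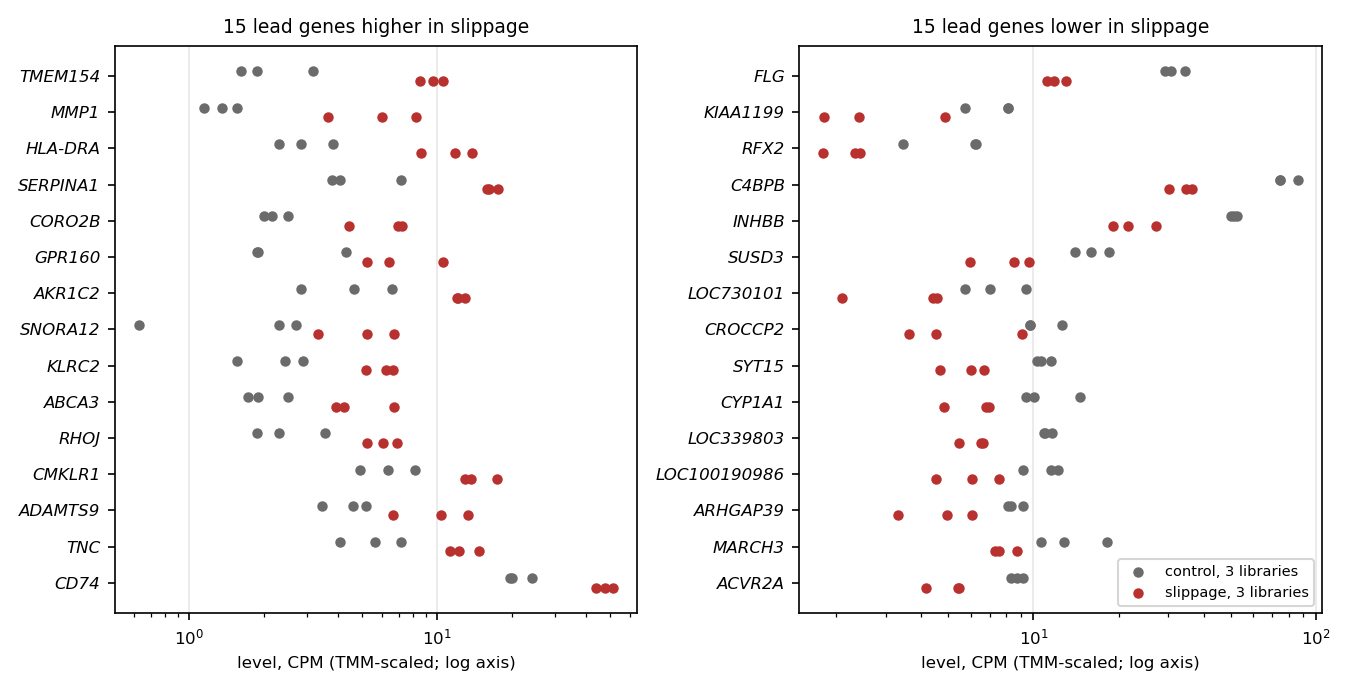
Levels of the 30 lead genes in each library, in CPM on a log axis, with control libraries in grey and slippage libraries in red (3 points each). In all 30 genes the groups do not overlap, which the rule for lead genes required, and the slippage libraries of SERPINA1 and AKR1C2 lie closer together than those of MMP1.

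Genes of antigen presentation were higher in the slippage-derived cells. MHC class I molecules, made of an HLA heavy chain and beta-2-microglobulin (B2M), carry peptides of the cell's own proteins to CD8 T cells, and class II molecules, normally made by antigen-presenting cells and induced in others by interferon gamma through the transactivator CIITA, carry peptides taken up from outside. Of the 16 tested class I and peptide loading genes, 7 rose and none fell, with a median change of 0.27 against 0.0013 over all tested genes. Of the 8 tested class II genes, a list added after the data were seen, 5 rose and none fell, with a median of 1.01. With 1 library left out in turn, 4 to 6 class I genes and 4 or 5 class II genes were called, the lowest class I count (4) being reached without control replicate 2 or slippage replicate 1.

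HLA-B (chromosome 6, 31353875 to 31357179) read 246, 248 and 259.8 CPM in control replicates 1, 2 and 3 and 383, 368 and 378 CPM in slippage replicates 1, 2 and 3. The 3 libraries of each group lay close together and the groups did not overlap, and the difference was 0.58 ± 0.052 (adjusted p = 2.08e-10). HLA-C read 180.1, 168 and 194 CPM in control and 234, 223 and 247 CPM in slippage (0.38 ± 0.063, adjusted p = 7.63e-05). These heavy chain genes are near copies of one another, so reads can be shared among them. B2M, which has no near copy, read 556, 538 and 518 CPM in control and 736, 716 and 890.4 CPM in slippage (0.54 ± 0.082, adjusted p = 0.0016), with slippage replicate 3 the highest library. The non-classical heavy chain HLA-E (0.29 ± 0.077, adjusted p = 0.0156), the immunoproteasome subunit PSMB10 (0.35 ± 0.11, adjusted p = 0.0477) and the peptide loading disulfide isomerase PDIA3 (0.28 ± 0.083, adjusted p = 0.0323) were called as well, with weaker support. The peptide transporters TAP1 (0.12 ± 0.11) and TAP2 (-0.14 ± 0.10), tapasin (TAPBP, 0.057 ± 0.094) and the class I transactivator NLRC5 (0.23 ± 0.22) did not pass the test.

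In the class II group, the alpha chain HLA-DRA (chromosome 6, 32439887 to 32445046) read 2.3, 2.82 and 3.79 CPM in control replicates 1, 2 and 3 and 11.9, 8.59 and 13.8 CPM in slippage replicates 1, 2 and 3. All slippage libraries were above all controls (1.91 ± 0.29, adjusted p = 2.10e-05). CD74, the invariant chain that occupies the class II groove before peptide loading, read 24.1, 20 and 19.8 CPM in control and 43.8, 47.6 and 51.4 CPM in slippage (1.16 ± 0.12, adjusted p = 8.59e-09). HLA-DPA1 (0.574, 1.25 and 1.63 CPM in control and 3.65, 5.21 and 5.72 CPM in slippage, 2.04 ± 0.44) and HLA-DPB1 (2.3, 3.75 and 1.08 CPM in control and 6.99, 10.2 and 6.62 CPM in slippage, 1.77 ± 0.34) rose from levels of a few counts, at adjusted p of 0.00201 and 0.000627. HLA-DMA, which helps load peptide, rose by 0.86 ± 0.23 (adjusted p = 0.0176). CIITA read 2.87, 2.82 and 2.71 CPM in control and 6.99, 4.95 and 2.41 CPM in slippage, so that slippage replicate 3 lay below the controls, and was not called (0.77 ± 0.37, adjusted p = 0.25). The promoter factor RFX5 (0.073 ± 0.11) was not called either. HLA-DQA1 was at 0 in every library of both groups.

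Class I and class II genes share a promoter module (the S, X and Y boxes) bound by RFX, CREB and NF-Y proteins, on which NLRC5 and CIITA act. Called MHC genes were searched for the letters CTGATTGG (or CCAATCAG, the other strand), a form of the Y box, within 250 bases before the start. The promoter stretches of those that hold them, and of CD74, are shown because these genes moved together. Sequences are from RefSeq on GRCh38.p14, 5′ to 3′ on the gene's strand, from 170 bases to 1 base before the annotated start. Capitals mark the letters CTGATTGG or CCAATCAG. In B2M they also mark matches to the core of an interferon-stimulated response element, on the other strand (2 overlapping matches), and in CD74 the letters CCAAT. The match reads CTGATTGG in B2M and HLA-DMA but CCAATCAG, the opposite orientation, in HLA-B and HLA-C. ATTGG, in the orientation of the B2M match and not marked, also lies 81 and 74 bases before the start in HLA-B and 80 in HLA-C. Whether the capitals or the unmarked ATTGG are the Y box of the module in each gene was not tested. The genes and the motifs were chosen after the values were seen. The coordinates are chr15:44711347-44711516 (plus strand) for B2M, chr6:31357180-31357349 (minus) for HLA-B, chr6:31272093-31272262 (minus) for HLA-C, chr6:32953098-32953267 (minus) for HLA-DMA and chr5:150412911-150413080 (minus) for CD74. The same stretch of TMEM154 (chr4:152679998-152680167, minus) and FLG (chr1:152325240-152325409, minus), the leading genes in each direction, is given for comparison.
B2M: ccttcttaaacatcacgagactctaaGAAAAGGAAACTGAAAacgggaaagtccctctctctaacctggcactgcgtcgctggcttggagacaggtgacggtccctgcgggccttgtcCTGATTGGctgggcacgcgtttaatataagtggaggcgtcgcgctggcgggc
HLA-B: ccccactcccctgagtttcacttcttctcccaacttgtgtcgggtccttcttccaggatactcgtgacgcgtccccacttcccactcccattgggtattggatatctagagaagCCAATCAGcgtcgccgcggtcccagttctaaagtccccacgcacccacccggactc
HLA-C: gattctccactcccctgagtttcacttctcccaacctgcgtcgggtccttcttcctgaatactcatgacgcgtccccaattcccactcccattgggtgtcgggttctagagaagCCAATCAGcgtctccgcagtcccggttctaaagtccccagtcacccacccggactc
HLA-DMA: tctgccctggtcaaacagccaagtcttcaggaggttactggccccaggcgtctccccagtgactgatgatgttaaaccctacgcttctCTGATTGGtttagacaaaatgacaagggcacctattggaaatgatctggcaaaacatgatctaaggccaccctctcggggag
CD74: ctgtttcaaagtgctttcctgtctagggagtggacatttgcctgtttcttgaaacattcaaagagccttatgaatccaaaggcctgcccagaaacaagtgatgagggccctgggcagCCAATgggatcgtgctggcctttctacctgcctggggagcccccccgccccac
TMEM154: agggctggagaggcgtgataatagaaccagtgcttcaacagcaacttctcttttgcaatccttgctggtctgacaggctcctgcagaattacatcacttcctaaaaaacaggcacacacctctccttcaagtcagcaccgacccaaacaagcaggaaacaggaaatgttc
FLG: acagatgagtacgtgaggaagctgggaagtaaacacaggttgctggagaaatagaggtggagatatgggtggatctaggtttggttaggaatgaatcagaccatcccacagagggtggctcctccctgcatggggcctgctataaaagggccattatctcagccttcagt
Of the 12 called MHC genes, 8 matched the promoter table (B2M, HLA-B, HLA-C, HLA-DMA, CD74, HLA-DPA1, HLA-DPB1 and PSMB10). Of these, 4 held CTGATTGG or CCAATCAG (4 of their 9 windows), against 3.81% of the 35116 windows in the table, and HLA-B and HLA-C are near copies. The first base of the match lay 52 bases before the start in B2M, 56 in HLA-B and HLA-C, and 82 in HLA-DMA. The response element core was searched as a fixed pattern, which was found in B2M and PSMB10, against 3.02% of all windows. Other forms of the element were not searched for. The search therefore does not show that HLA-B, HLA-C or the other genes lack it. The shorter CCAAT (or ATTGG), which the Y box contains, was found in 6 of the 8 genes against 32% of all windows. A match is a stretch of letters and does not show that a factor binds there.

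Several MHC genes were also higher in slippage than in the other doubled populations of the line. HLA-B read 193 ± 1.31 CPM (mean ± SD, n = 3) in the fusion-derived cells and 246 ± 3.02 CPM after cytokinesis failure, against 376 ± 7.35 CPM in slippage (differences of 0.96 ± 0.054 and 0.61 ± 0.052, adjusted p = 3.66e-17 and 3.82e-11). CD74 read 28.9 ± 1.82 and 20.2 ± 0.749 CPM, against 47.6 ± 3.84 CPM (differences of 0.72 ± 0.12 and 1.24 ± 0.12, adjusted p = 1.04e-05 and 2.09e-09). HLA-DRA read 2.71 ± 1.41 and 5.34 ± 0.854 CPM, against 11.4 ± 2.65 CPM (differences of 2.05 ± 0.31 and 1.10 ± 0.26, adjusted p = 3.21e-06 and 0.0114). B2M was above fusion (0.39 ± 0.082, adjusted p = 0.00554) and not called against cytokinesis failure (0.30 ± 0.082, adjusted p = 0.078). HLA-E, in contrast, stood at 156 ± 5.46 CPM in fusion and 151 ± 10.3 CPM in slippage and was not called between them (adjusted p = 0.703). These comparisons use the same 3 slippage libraries.

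**Figure D2:**
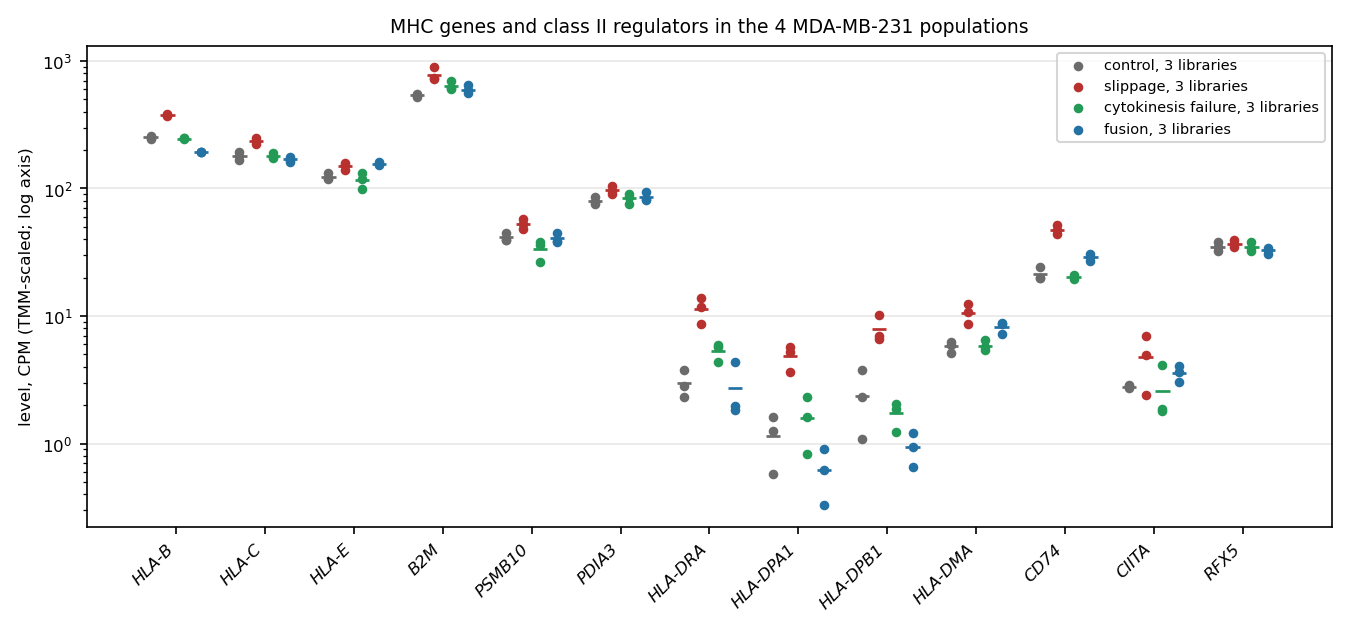
Levels of 11 called MHC genes and of the class II regulators CIITA and RFX5 in the 12 MDA-MB-231 libraries, in CPM on a log axis, with 1 point per library and a bar at the mean of each group's 3 libraries. The slippage libraries (red) of HLA-B, HLA-DRA and CD74 lie above those of the other 3 populations, those of CIITA spread from 2.41 to 6.99 CPM, and RFX5 shows no separation.

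Some interferon-stimulated genes, which cells switch on when interferon or foreign nucleic acid is sensed, rose. Of 39 tested members, 8 rose and 1 fell (median 0.18), and 31 had a positive fold change. The exonuclease gene ISG20 read 20.4, 23.2 and 18.1 CPM in control and 32.2, 35.1 and 35.2 CPM in slippage and rose by 0.74 ± 0.14 (adjusted p = 0.000349), and IFI27 read 33.6, 32.5 and 36.8 CPM in control and 51.7, 51.8 and 45.7 CPM in slippage and rose by 0.53 ± 0.11 (adjusted p = 0.00132). BST2, the membrane protein tetherin, read 92.8, 91.4 and 94.3 CPM in control replicates 1, 2 and 3 and 64.7, 62.5 and 47.8 CPM in slippage replicates 1, 2 and 3 and fell by 0.67 ± 0.093 (adjusted p = 3.74e-06), with every slippage library below every control. Of the antiviral genes, IFIT2 and OASL were called higher, while IFIT1 (-0.01 ± 0.081) and ISG15 (0.061 ± 0.096) were not called. The 8 higher calls became 2 without slippage replicate 3, 4 without control replicate 1 or 2, and 5 without slippage replicate 2. Among 11 genes of cytosolic DNA sensing, the nucleotidase ENPP1, which degrades the messenger cGAMP, rose by 0.31 ± 0.064 (adjusted p = 0.00124) and the DNA sensor IFI16 by 0.23 ± 0.071 (adjusted p = 0.0397; 0.0587 to 0.293 without each library but control replicate 2), and 1 to 3 were called with a library left out, 1 without each of the 5 libraries other than control replicate 2. Of 17 NF-kB targets and cytokines, 3 rose and none fell, namely the inhibitor NFKBIA (0.41 ± 0.074), the adhesion molecule ICAM1 (13.5, 16 and 12.7 CPM in control and 24.9, 25.3 and 22.6 CPM in slippage, 0.79 ± 0.16, adjusted p = 0.00084) and the apoptosis inhibitor BIRC3 (0.44 ± 0.11; adjusted p = 0.079 without control replicate 2 and 0.0553 without slippage replicate 1).

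Matrix, adhesion and protease genes moved mostly upward. Of 16 tested mesenchymal genes, 6 rose and none fell (median 0.11). The calcium-binding protein S100A4 read 871, 867 and 884 CPM in control replicates 1, 2 and 3 and 1178, 1206 and 1266 CPM in slippage replicates 1, 2 and 3, with no overlap (0.48 ± 0.043, adjusted p = 2.08e-10). Fibronectin (FN1) read 98.5, 109.8 and 99.7 CPM in control and 147, 155 and 162 CPM in slippage (0.59 ± 0.069, adjusted p = 1.05e-07). The collagen VI chain COL6A1 rose by 0.48 ± 0.083, COL5A1 by 0.40 ± 0.12, and the lysyl oxidase LOXL2, which cross-links collagen, by 0.37 ± 0.093. The epithelial list of 21 genes moved less uniformly, as the simple epithelial keratins KRT18 (621, 627 and 615 CPM in control and 519, 487 and 503 CPM in slippage, -0.30 ± 0.046) and KRT7 (-0.32 ± 0.054) fell and the desmosome protein DSP read 25.6, 25.3 and 26 CPM in control and 39.8, 42.7 and 40.9 CPM in slippage and rose by 0.68 ± 0.12 (adjusted p = 0.000271). Without any one of the libraries, 4 to 6 mesenchymal genes and the same number of epithelial calls (1 higher, 2 lower) were found.

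Of 29 integrin, laminin and focal adhesion genes, 8 rose and 2 fell (median 0.089). Those that rose included the laminin chains LAMA5 (0.42 ± 0.086), LAMA3 (0.74 ± 0.18) and LAMB3 (0.26 ± 0.071) and the integrins ITGA5 (0.42 ± 0.091), ITGB5 (0.30 ± 0.079), ITGA2 (0.18 ± 0.049) and ITGB1 (0.13 ± 0.042). The focal adhesion kinase PTK2 fell by 0.28 ± 0.068 (adjusted p = 0.00725; 0.0536 without slippage replicate 3) and the adaptor paxillin (PXN) by 0.21 ± 0.056. The higher count became 4 without control replicate 2 or 3 or slippage replicate 2, and the lower count 0 without slippage replicate 3 and 1 without control replicate 1 or 2 or slippage replicate 2. Of 17 proteases and urokinase system genes, 6 rose and none fell (median 0.20), a count of 5 to 7 with any library left out. The tissue plasminogen activator PLAT read 89.3, 92 and 91.3 CPM in control replicates 1, 2 and 3 and 149.5, 156 and 150.1 CPM in slippage replicates 1, 2 and 3 (0.74 ± 0.07, adjusted p = 6.66e-10), with no overlap. Cathepsin B (CTSB) rose by 0.35 ± 0.052, the plasmin-pathway inhibitor SERPINE2 by 0.60 ± 0.13, the metalloprotease inhibitor TIMP3 by 0.26 ± 0.049 and the urokinase receptor PLAUR by 0.23 ± 0.066, beside MMP1. Of 18 S100 and annexin genes, 8 rose and none fell (median 0.20; 6 or 7 with a library left out), including S100A6 (0.31 ± 0.037), S100A2 (0.37 ± 0.054), S100A13 (0.41 ± 0.067) and annexin A2 (ANXA2, 0.19 ± 0.044).

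In the TGF-beta and activin pathway, 4 of 25 tested genes rose and 1 fell (3 or 4 and 1 with a library left out). TGFBI, a matrix protein named for its induction by TGF-beta, read 30.2, 27.5 and 28.2 CPM in control replicates 1, 2 and 3 and 52.3, 59.4 and 66.2 CPM in slippage replicates 1, 2 and 3 with all slippage libraries above all controls (1.05 ± 0.11, adjusted p = 1.23e-08). LTBP1, which stores latent TGF-beta in the matrix, read 64, 57.9 and 65.6 CPM in control and 103, 112 and 103 CPM in slippage (0.76 ± 0.077, adjusted p = 4.41e-09). The feedback inhibitor PMEPA1 rose by 0.57 ± 0.084 and the signal transducer SMAD3 by 0.22 ± 0.069. The activin antagonist follistatin (FST) read 83, 92.9 and 85.3 CPM in control and 52, 62 and 62 CPM in slippage and fell by 0.57 ± 0.089 (adjusted p = 2.73e-05), and INHBB, given above, codes for an activin ligand. The median of the list was 0.06, close to that of all tested genes.

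YAP and TAZ are coactivators restrained by the Hippo kinases. Of 27 tested genes of a list that holds their targets and members of the pathway, 7 fell, 2 rose and 18 were not called (median -0.15; 7 of the 27 had a positive fold change). ANKRD1 read 804, 753 and 759.6 CPM in control replicates 1, 2 and 3 and 631, 629 and 583 CPM in slippage replicates 1, 2 and 3 (-0.33 ± 0.05, adjusted p = 1.69e-05). CTGF, a matricellular growth factor, read 230.1, 235 and 224 CPM in control and 179.9, 179 and 176 CPM in slippage (-0.36 ± 0.059, adjusted p = 4.40e-05). CRIM1, a transmembrane antagonist of BMPs, read 231, 247 and 231 CPM in control and 158, 173 and 169 CPM in slippage (-0.50 ± 0.063, adjusted p = 4.73e-07), and tissue factor, F3, the initiator of coagulation, read 357, 369 and 345 CPM in control and 259.8, 248 and 282 CPM in slippage (-0.44 ± 0.058, adjusted p = 1.55e-06). In each of these 4 genes all slippage libraries were below all controls. TAZ itself, encoded by WWTR1, rose by 0.34 ± 0.057, and the ectonucleotidase NT5E by 0.27 ± 0.052. LATS2 read 40.2, 38.2 and 46.9 CPM in control and 46.8, 34.1 and 34.9 CPM in slippage, overlapping, and was not called (-0.12 ± 0.12, adjusted p = 0.624). The lower count was 4 or 5 with any library left out, and it was 5 with control replicate 1 or slippage replicate 1 left out and 4 with each of the others.

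CDKN1A, the gene of the CDK inhibitor p21, rose. It read 93.6, 92.9 and 89.1 CPM in control replicates 1, 2 and 3 and 147, 141 and 139.6 CPM in slippage replicates 1, 2 and 3 with all slippage libraries above all controls (0.63 ± 0.068, adjusted p = 1.44e-08). The polo-like kinase PLK2 fell (-0.21 ± 0.061, adjusted p = 0.0329), a call lost without each library but slippage replicate 1, at 0.08 to 0.159. Of the G1 regulators, the cyclin CCND2 read 3.73, 5.01 and 3.52 CPM in control and 8.51, 6.51 and 9.33 CPM in slippage and rose by 0.98 ± 0.27 (adjusted p = 0.0188), but did not pass at 4 of the left-out libraries, control replicates 1 (0.0822) and 3 (0.0982) and slippage replicates 1 (0.052) and 3 (0.0883). The kinase CDK6 read 148, 150.5 and 132 CPM in control and 115, 98.7 and 106 CPM in slippage and fell by 0.43 ± 0.094 (adjusted p = 0.00606; 0.054 without slippage replicate 2). Cyclin E1 (CCNE1, -0.066 ± 0.15) and MYC (0.067 ± 0.09) were not called, and CDKN2A was at 0 in all 6 libraries.

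The kinesin KIF18A read 46.5, 49.1 and 51.2 CPM in control and 43.8, 58.3 and 54.4 CPM in slippage and was not called (0.098 ± 0.10, adjusted p = 0.676), and neither was any other of the 15 mitotic kinesins, including KIFC1, which clusters extra centrosomes (0.083 ± 0.11). None of the 20 centriole and centrosome genes was called, among them PLK4, the kinase that starts centriole duplication (-0.021 ± 0.16), nor any of the 28 homologous recombination and Fanconi genes or the 34 proteasome subunits. These counts of 0 are from edgeR, and DESeq2 and limma on log2(TPM + 1) made no call in these lists either. At an unadjusted p below 0.05 in edgeR, 1 of the kinesins, 4 of the centriole genes, 5 of the repair genes and 6 of the proteasome subunits passed, against 18.8% of all tested genes. Of 44 mitotic and checkpoint genes 3 were called, and of 46 replication genes 3, shares close to the background of 6.18%. The anaphase activator CDC20 read 316, 297 and 304 CPM in control and 272, 254 and 216 CPM in slippage and fell by 0.31 ± 0.065 (adjusted p = 0.00264), while the kinases BUB1 (lower) and CDK1 (higher) had calls that were each lost in 10 alternatives. The 3 called replication genes, CLSPN, RRM2 and TYMS, fell by 0.17 to 0.20 and none was kept without control replicate 2 or 3 or slippage replicate 2. A tubulin, TUBA1A, rose by 0.35 ± 0.054, but has near copies.

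Many chaperone genes fell. Of 28 tested chaperone and heat shock genes, 11 fell and none rose, 25 had a negative fold change, and the median was -0.16. The mitochondrial chaperonin HSPD1 read 705, 683 and 682 CPM in control replicates 1, 2 and 3 and 546, 567 and 559 CPM in slippage replicates 1, 2 and 3, without overlap (-0.31 ± 0.046, adjusted p = 1.03e-05). HSF1, the transcription factor of the heat shock response, read 174, 179 and 183 CPM in control and 137, 134 and 118 CPM in slippage (-0.46 ± 0.075, adjusted p = 7.32e-05). Both calls held under all alternatives. HSP90AA1, the inducible HSP90, differed by -0.20 ± 0.043 (adjusted p = 0.00322; 0.0519 without slippage replicate 2), and the cytosolic chaperonin subunits CCT5 (-0.17 ± 0.052), CCT6A (-0.16 ± 0.048) and CCT8 (-0.18 ± 0.052), the cochaperone STIP1 (-0.20 ± 0.061) and the small heat shock protein HSPB1 (-0.31 ± 0.089) were also lower. DESeq2 called 5 of the chaperone genes lower and limma on log2(TPM + 1) called 2. The edgeR count was 8 without slippage replicate 3, 6 without slippage replicate 1, 5 without control replicate 1, and 3 without control replicate 2, control replicate 3 or slippage replicate 2.

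Members of the ATF4, NRF2 and MYC lists fell and rose. Among 32 genes of the unfolded protein response and ATF4, 5 fell and 2 rose, and the median (0.033) was slightly positive, so the list did not move in 1 direction. The lower count was 3 without control replicate 3 or slippage replicate 2, and the higher count 0 or 1 without any one of the libraries. Those that fell were the neutral amino acid transporter SLC7A5 (156, 145 and 152 CPM in control and 111, 116 and 88.1 CPM in slippage, -0.52 ± 0.079, adjusted p = 2.31e-05), its partner SLC3A2 (-0.33 ± 0.073), the cystine transporter SLC7A11 (155, 157 and 142 CPM in control and 121, 103 and 106 CPM in slippage, -0.46 ± 0.073, adjusted p = 3.65e-05), the serine synthesis enzyme PSAT1 (-0.25 ± 0.073) and the glutathione-degrading CHAC1 (-0.73 ± 0.19). Of 23 NRF2 targets and AKR1C enzymes, 8 fell and 2 rose (median -0.087). Thioredoxin reductase (TXNRD1) read 385, 391 and 372 CPM in control and 325, 285 and 302 CPM in slippage (-0.33 ± 0.055, adjusted p = 7.10e-05), the glutathione synthesis subunit GCLM fell by 0.27 ± 0.061 and the quinone reductase NQO1 by 0.24 ± 0.059. NRF2 itself, NFE2L2 (-0.20 ± 0.061), and its inhibitor KEAP1 (-0.30 ± 0.088) were both lower. The genes that rose were AKR1C2 and AKR1C3, which share sequence, and 1 of them was called without control replicate 1 or 2 or slippage replicate 3. The lower NRF2 count was 4 without control replicate 2 or 3 or slippage replicate 2 and 5 without control replicate 1 or slippage replicate 3. In the MYC network, 5 of 18 genes fell and 1 rose (median -0.10). Those that fell, each known for a part in ribosome biogenesis, were NOP58 (259, 269 and 287 CPM in control and 204, 195 and 220.2 CPM in slippage, -0.40 ± 0.062, adjusted p = 2.39e-05), BOP1 (-0.55 ± 0.095), nucleolin (NCL, -0.18 ± 0.047), fibrillarin (FBL, -0.20 ± 0.053) and NOP56 (-0.17 ± 0.05). The MYC antagonist MXD4 rose by 0.56 ± 0.16, a call that needed control replicates 1 and 3 and slippage replicate 2. That lower count was 5 without slippage replicate 1, 2 without control replicate 2 or 3, and 3 without each of the other libraries.

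**Figure D3:**
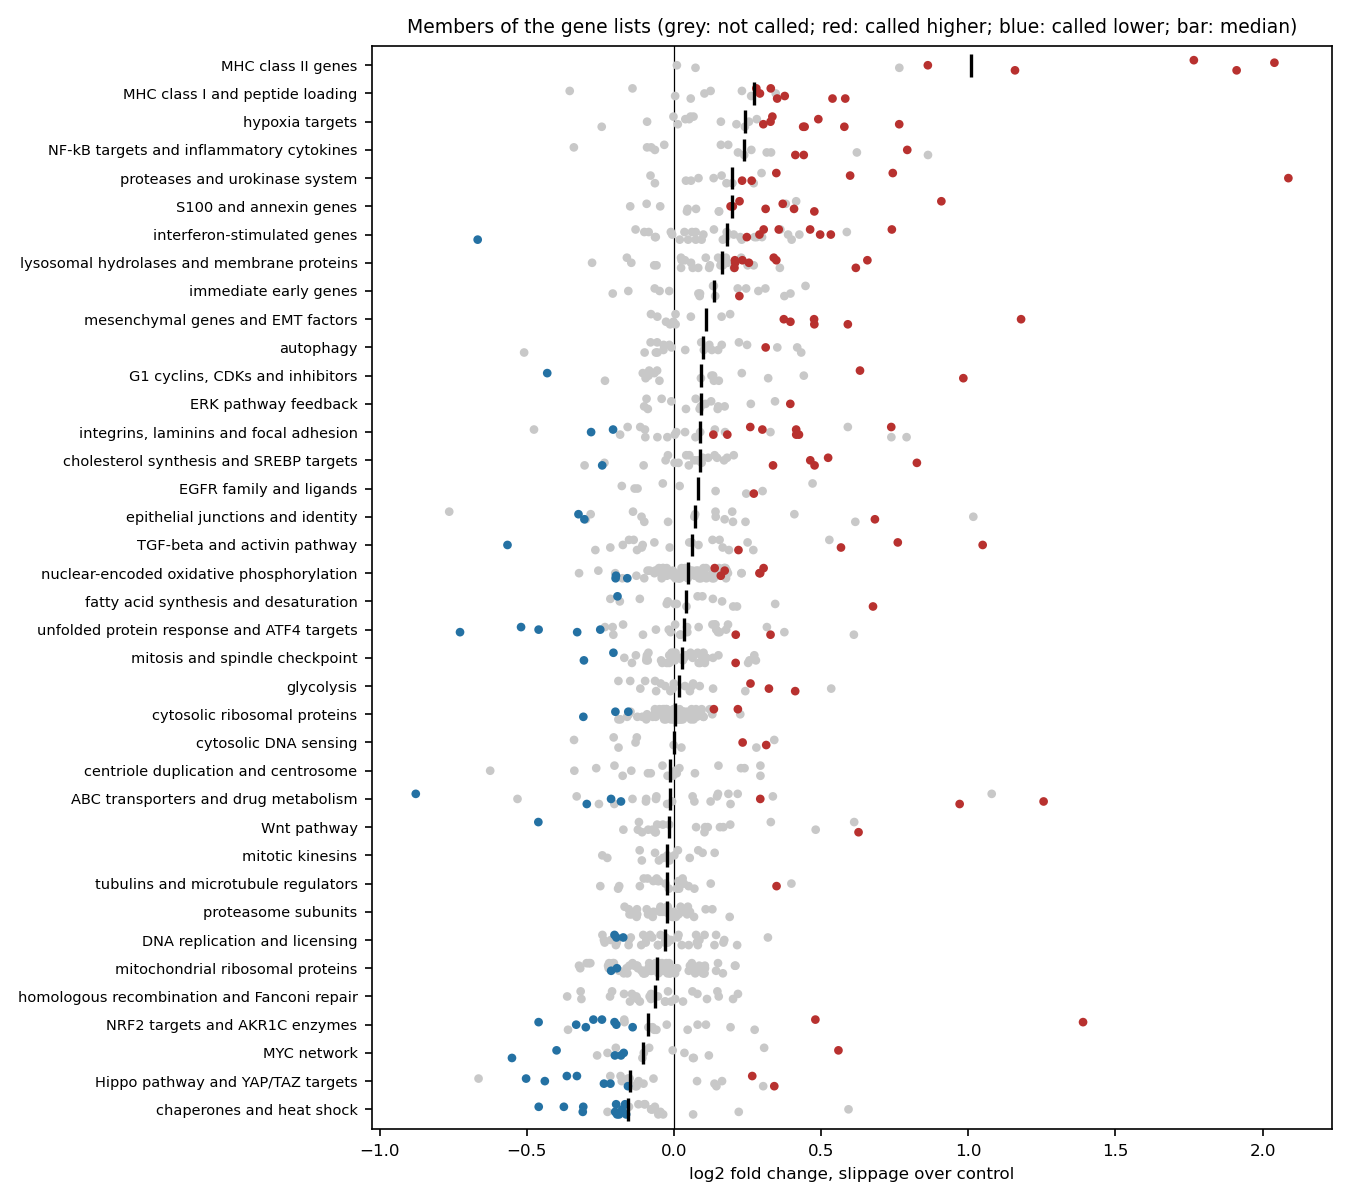
Log2 fold change of slippage over control for every tested member of the 38 lists drawn, with 1 point per gene (red called higher, blue called lower, grey not called) and a black bar at each list's median. The lists are in order of their median, from -0.16 for chaperones to 1.01 for MHC class II genes, and those of mitosis, centrosomes and proteasome lie close to 0.

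Several hypoxia-responsive, sterol and lysosomal genes rose. Of 21 hypoxia targets, 8 rose and none fell (median 0.24; 5 to 8 with a library left out, 5 without control replicate 1). NDRG1, a stress-induced differentiation gene, read 98.5, 109.8 and 112 CPM in control replicates 1, 2 and 3 and 160.1, 159 and 160.3 CPM in slippage replicates 1, 2 and 3 (0.58 ± 0.069, adjusted p = 1.17e-07). The angiogenic factor VEGFA read 108, 108 and 111 CPM in control and 142, 146 and 157 CPM in slippage (0.44 ± 0.07, adjusted p = 3.35e-05), with no overlap in either gene. The mitophagy receptors BNIP3 (0.33 ± 0.064) and BNIP3L (0.44 ± 0.081), the carbonic anhydrase CA12 (0.77 ± 0.17) and the collagen prolyl hydroxylase P4HA1 (0.30 ± 0.071) rose too. Of 22 glycolysis genes, 3 rose, among them PGK1 (229, 244 and 239.7 CPM in control and 286, 297 and 309 CPM in slippage, 0.32 ± 0.054, adjusted p = 7.72e-05). The calls for the enolase ENO2 (0.26 ± 0.063; adjusted p = 0.068 without control replicate 2 and 0.0683 without control replicate 3) and the glucose transporter SLC2A3 (0.41 ± 0.12; 0.0897 to 0.161 with control replicate 1, control replicate 2, slippage replicate 2 or slippage replicate 3 left out) were less firm, and the count was 1 without control replicate 2.

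Of 26 cholesterol synthesis genes, 5 rose and 1 fell. INSIG1, the sterol sensor that retains SREBP in the endoplasmic reticulum, read 53.1, 55.4 and 57.7 CPM in control replicates 1, 2 and 3 and 93.3, 96.1 and 106 CPM in slippage replicates 1, 2 and 3 (0.83 ± 0.094, adjusted p = 8.49e-08). The synthase HMGCS1 rose by 0.52 ± 0.16, the desaturase SC5D by 0.48 ± 0.15 and the transcription factor SREBF1 by 0.46 ± 0.11 (adjusted p = 0.00502; 0.0566 without control replicate 3). The higher count was 2 without control replicate 2 or 3 or slippage replicate 3 and 3 without control replicate 1 or slippage replicate 2. SCD, which makes monounsaturated fatty acids, read 129, 116 and 135 CPM in control and 186, 214 and 209 CPM in slippage (0.68 ± 0.073, adjusted p = 2.00e-08). Of 36 lysosomal genes, 9 rose and none fell (median 0.16; 6 to 8 with a library left out). CD68 read 74.7, 73.8 and 66.6 CPM in control and 110.0, 109 and 111 CPM in slippage (0.62 ± 0.079, adjusted p = 6.11e-07). It is also the only immune marker with enough counts to test, and the 5 immune genes named above were at 0 in both groups. Prosaposin (PSAP, 0.25 ± 0.046), the membrane proteins LAMP1 (0.21 ± 0.06) and LAMP2 (0.34 ± 0.071), the fucosidase FUCA1 (0.66 ± 0.14) and the protease cathepsin D (CTSD, 0.21 ± 0.06) rose with it. The cholesterol exporter ABCA1 read 12.9, 10.6 and 12.7 CPM in control and 21.6, 23.2 and 26.8 CPM in slippage and rose by 0.97 ± 0.17 (adjusted p = 0.000182), while the xenobiotic-metabolising CYP1B1 fell by 0.30 ± 0.061 (adjusted p = 0.00164).

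Of 78 cytosolic ribosomal protein genes, 2 rose and 3 fell (median 0.0053), with RPL8 lowest (2024, 2149 and 2018 CPM in control and 1805, 1678 and 1518 CPM in slippage, -0.31 ± 0.046, adjusted p = 2.54e-05). Of 77 nuclear-encoded respiratory chain genes, 6 rose and 3 fell, led by NDUFB2 (0.30 ± 0.064). Of 75 mitochondrial ribosomal protein genes, none rose and 2 fell. These shares are near or below the background of 6.18%, except for the respiratory chain genes, whose higher count was 2 or 3 without control replicate 1, 2 or 3 or slippage replicate 3.

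The other tools called fewer members of most lists, as they did over all genes (706 in edgeR, 343 in DESeq2 and 169 in limma on log2(TPM + 1)). DESeq2 called higher 5 of the class I genes, 2 interferon-stimulated, 4 mesenchymal, 4 integrin and laminin, 4 protease, 7 S100 and annexin, 5 hypoxia, 3 cholesterol and 6 lysosomal genes, and called lower 4 YAP and TAZ targets, 5 NRF2 targets and 5 MYC network genes. Limma on log2(TPM + 1) called higher 4, 2, 2, 1, 4, 4, 3, 1 and 3 of the same lists, in that order, and called lower 4, 3 and 2. It called 5 of the 8 class II genes higher, and DESeq2 called CD74. For 129 of the 706 genes, DESeq2 gave no adjusted p after its filter on low counts, among them HLA-DRA, HLA-DPA1, HLA-DPB1, HLA-DMA, MMP1, ISG20 and ICAM1, so these are neither kept nor lost by it. In each of these 13 lists, the median fold change had the same sign in edgeR, DESeq2 and limma.

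The share of called genes differed between chromosome arms. RefSeq placed 11162 of the tested genes on GRCh38.p14, and arms were split at rounded centromere positions taken from general knowledge rather than from a file. On 8q, 33 of 257 tested genes fell (12.8%, against 2.91% of all tested genes) and 5 rose, with a median fold change of -0.13. The arm median of slippage replicates 1, 2 and 3 relative to the mean control was -0.13, -0.14 and -0.10, and that of the controls -0.02, 0.017 and 0.0095, so the groups did not overlap. On 2q, 37 of 443 genes fell and 3 rose (median -0.098), and on 12q 28 of 459 fell and 8 rose (median -0.04). On Xq, 18 of 206 genes rose (8.74%, against 3.27% of all tested genes) and 2 fell (median 0.13), and on 15q 17 of 354 rose and 4 fell (median 0.083). On 6p, 22 of 337 genes rose and 6 fell, but the median was 0.0014. The sign of the median on 8q, 2q, 12q, Xq and 15q was the same in all 16 alternatives, while the counts moved. DESeq2 called 18 genes lower on 8q, 15 on 2q and 18 on 12q, and 10 higher on Xq, 5 on 15q and 12 on 6p. Limma on log2(TPM + 1) called 13, 5 and 8 lower and 1, 5 and 15 higher on the same arms. With 1 library left out, the lower genes on 8q numbered 15 (slippage replicate 2), 17 (control replicate 2), 18 (control replicate 3) or 22 to 25. On 2q they numbered 13 (control replicate 3), 17 (control replicate 2), 19 (slippage replicate 2), 22 (control replicate 1), 25 or 29. On 12q they numbered 12 to 17 without each library but slippage replicate 1. The higher genes on Xq numbered 9 without slippage replicate 3, 10 without control replicate 1 and 11 without control replicate 3. On 15q they numbered 8 without control replicate 2, 10 without control replicate 1 or 3 and 11 without slippage replicate 3, and on 6p 14 without control replicate 2.

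In windows of 10 Mb with at least 20 tested genes, a division added after the data were seen, the lowest median was in the last window of 8q, from 140 to 150 Mb, where 13 of 62 genes fell and none rose (median -0.27, and -0.25 without slippage replicate 3). These 13 included HSF1, BOP1, RPL8 and PTK2, which the lists above count under chaperones, the MYC network, ribosomal proteins and focal adhesion. The splicing factor PUF60 (-0.33 ± 0.067) and the exosome subunit EXOSC4 (-0.51 ± 0.12) lay there as well. From 100 to 110 Mb on the same chromosome, 6 of 26 genes fell and none rose (median -0.20), among them the poly(A)-binding protein PABPC1 (-0.22 ± 0.045). The medians were negative as well from 90 to 100 Mb (4 of 37 genes lower, none higher, median -0.19) and from 80 to 90 Mb (1 of 21 lower, none higher, median -0.17). The windows from 120 to 130 Mb and from 70 to 80 Mb did not share this. In the first, 1 of 29 genes rose and 3 fell (median 0.067, and -0.0071 without slippage replicate 3). In the second, 1 of 21 rose and none fell (median 0.077). INHBB and HSPD1 lay in 2q windows of negative median (-0.20 for 120 to 130 Mb and -0.17 for 190 to 200 Mb). On the X chromosome, 6 of 42 genes rose from 100 to 110 Mb (median 0.19) and 3 of 21 from 110 to 120 Mb (median 0.22), among them the actin-bundling PLS3 (0.25 ± 0.070), and none fell in either. Low-pass genome sequencing of these populations was not analysed here, and the part of DNA copy number in these shifts was not tested.

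**Figure D4:**
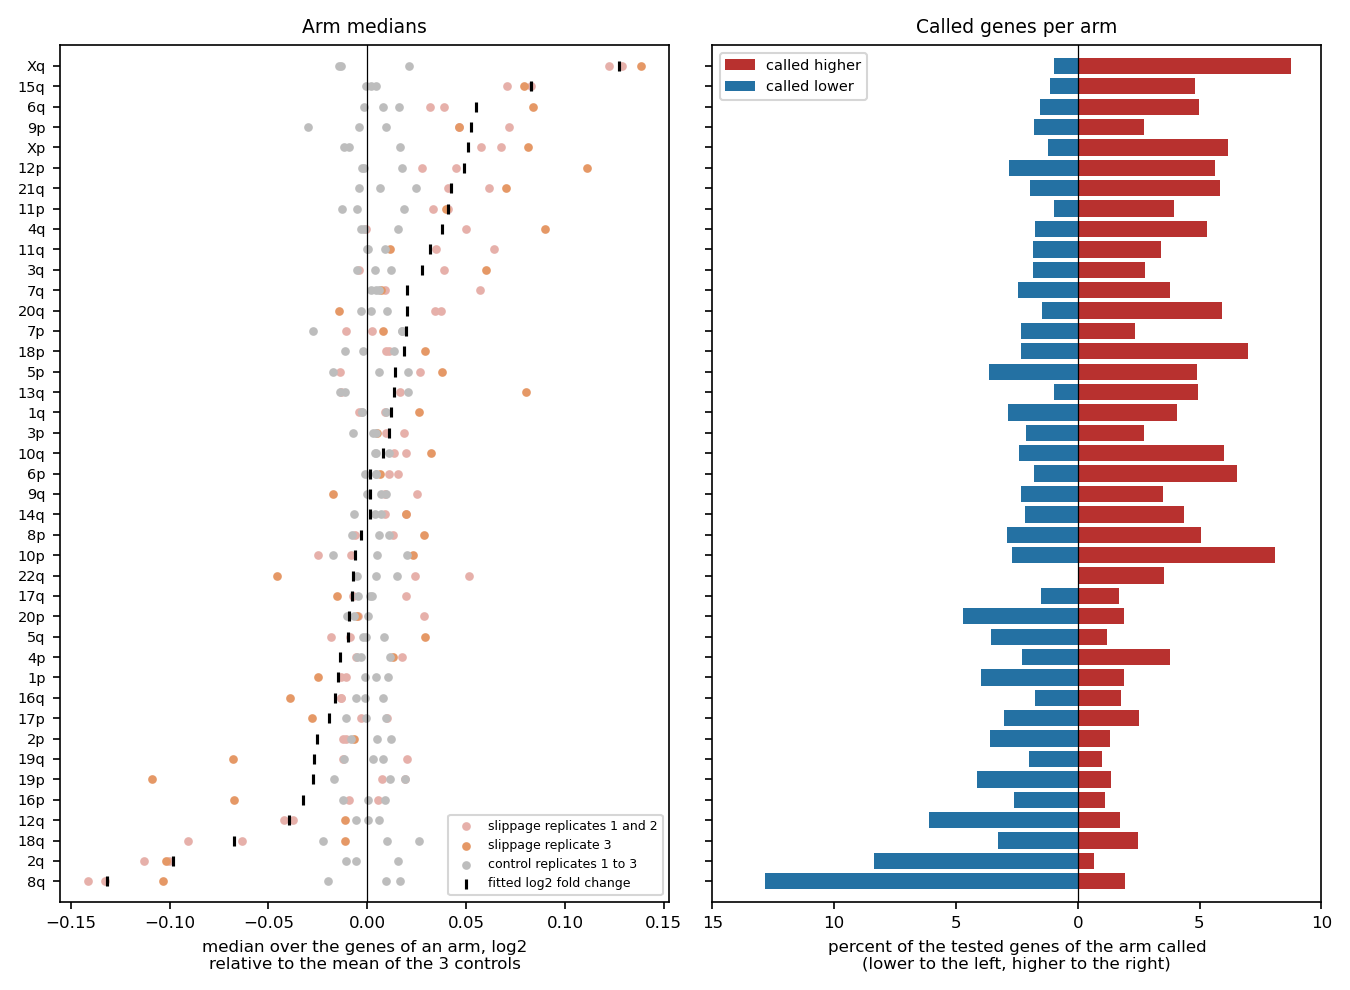
Chromosome arms with at least 20 tested genes, ordered by median fold change. At left are arm medians on the log2 scale for each slippage and control library relative to the mean of the controls, with the fitted median as a black tick, and at right the percent of tested genes called higher (red) or lower (blue), with 8q lowest at a median of -0.13 and Xq highest at 0.13.

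Against the fusion-derived cells, the slippage-derived cells differed in 1953 of 11424 genes (17.1%), 914 higher (8%) and 1039 lower (9.09%), and limma on log2(TPM + 1) called 1130 higher and 308 lower. The median fold change over all tested genes was 0.080 in that limma fit and 0.0031 in edgeR, so the limma counts against fusion are not centred on 0. The 6 genes most above fusion were ZBTB7C, LGR5, COCH, PAGE5, DHRS3 and ADAMTS9. LGR5, a Wnt-pathway stem cell receptor, read 6.43 ± 1.22 CPM in slippage and 5.62 ± 1.62 in control (n = 3 each), against 0.63 ± 0.314 CPM in fusion (3.29 ± 0.46 against fusion). COCH, an extracellular matrix protein of the inner ear, read 6.31 ± 1.18 in slippage, 6.83 ± 2.17 in control and 0.628 ± 0.0247 in fusion. Neither was called between slippage and control. MMP1, in turn, was higher in fusion (19.8 ± 1.51 CPM) than in slippage (5.96 ± 2.28 CPM, -1.75 ± 0.23, adjusted p = 2.04e-07), and both means were above that of control (1.36 ± 0.208 CPM). The interleukin IL24 read 15.8 ± 1.06 CPM in fusion and 3.7 ± 0.84 in slippage (-2.07 ± 0.25). Of 78 cytosolic ribosomal protein genes, 47 were lower in slippage than in fusion and none was higher (median -0.17; 38 to 47 lower with a library left out). Their direction held on the TPM scale, but limma on log2(TPM + 1) called 8 of them lower in place of 47, with a median of -0.078 where that of all genes was 0.080. Of 25 TGF-beta pathway genes 10 were higher and 1 lower (13 and 1 in limma on log2(TPM + 1)). By arm, 5 of 257 genes on 8q were higher in slippage than in fusion and 59 lower (median -0.15). On Xq, 22 of 206 were higher and 58 lower (median -0.15), the opposite direction to that against control. On 2q, 28 of 443 were higher and 12 lower (median 0.014), and on 12q 31 of 459 were higher and 52 lower (median -0.031). On 15q, 60 of 354 were higher and 7 lower (median 0.17).

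Against cytokinesis failure the difference was smaller, at 363 of 11424 genes (3.18%), 240 higher (2.1%) and 123 lower (1.08%), and 186 when only these 6 libraries were fitted. Without cytokinesis failure replicate 3 there were 212 calls and without slippage replicate 2 there were 221. Of the interferon-stimulated genes, 19 of 39 were higher in slippage and none was lower (median 0.48; 16 to 18 with a library left out, 14 without both noisier libraries and 11 in limma on log2(TPM + 1)). IFIT2, an interferon-induced antiviral protein, read 102, 91.7 and 103 CPM in control and 108, 119.8 and 139.6 CPM in slippage, and 57.9 ± 4.42 CPM (mean ± SD, n = 3) after cytokinesis failure, and the difference between the doubled populations was 1.07 ± 0.088 (adjusted p = 1.49e-11). IFIT3 read 274 ± 5.17 CPM in control, 293 ± 14.2 in slippage and 165 ± 10.7 after cytokinesis failure (0.83 ± 0.061 between the last 2, adjusted p = 6.38e-13), and was not called between slippage and control (adjusted p = 0.403). OASL (1.21 ± 0.14), ISG15 (0.84 ± 0.11) and SAMD9L (0.82 ± 0.14) were also higher in slippage than after cytokinesis failure. Between slippage and control, IFIT2 and OASL were called higher and ISG15 was not called. BST2 was low in both (58.3 ± 9.18 CPM in slippage and 54.3 ± 3.24 CPM after cytokinesis failure; 0.096 ± 0.10, adjusted p = 0.736). CDKN1A was at 157 ± 5.47 CPM after cytokinesis failure and was not called between the 2 routes (-0.14 ± 0.064, adjusted p = 0.255), whereas SERPINA1 (4.7 ± 0.589 CPM, 1.82 ± 0.23, adjusted p = 8.99e-07) and TGFBI (30.4 ± 2.47 CPM, 0.95 ± 0.11, adjusted p = 1.09e-07) were higher in slippage. The cancer-testis gene SPANXC read 10 ± 1.89 CPM in slippage and 1.78 ± 0.579 after cytokinesis failure (2.46 ± 0.31), but belongs to a family of near copies. By arm, the largest median difference from cytokinesis failure was on 5q, where 37 of 420 genes were higher in slippage and none was lower (median 0.14; 23 without cytokinesis failure replicate 3 and 6 in limma on log2(TPM + 1)). Against control, slippage was not raised on 5q, where 5 genes were higher and 15 lower (median -0.0098). On Xq, 18 genes were higher and none was lower (median 0.13), a count of 8 without cytokinesis failure replicate 2 or slippage replicate 3, 9 without cytokinesis failure replicate 3 or slippage replicate 2, and 4 in limma. On 2q, 22 genes were lower and 1 was higher (median -0.076; 14 lower without cytokinesis failure replicate 3, 13 without slippage replicate 2 and none in limma). On 8q, 4 were higher and 6 lower (median -0.042).

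The slippage effect was compared between MDA-MB-231 and HCC1806 with an interaction term in a fit of all 24 libraries, which called 445 of 12563 genes (3.54%), 236 with the larger value in MDA-MB-231 (1.88%) and 209 with the smaller (1.66%). CDKN1A rose in MDA-MB-231 and fell in HCC1806 (-0.63 ± 0.11, adjusted p = 2.40e-05), where 382 of 11467 genes were called (3.33%; 1.53% higher and 1.81% lower), a difference of 1.26 ± 0.12 (adjusted p = 7.26e-13). MMP1 rose in MDA-MB-231 and fell in HCC1806 (-0.99 ± 0.079, adjusted p = 6.17e-09; difference 3.07 ± 0.41, adjusted p = 8.27e-07). Fibronectin, FN1, fell in HCC1806 (-0.74 ± 0.17, adjusted p = 0.00374; difference adjusted p = 3.32e-08), as did TGFBI (-0.37 ± 0.069; difference adjusted p = 3.25e-13) and NDRG1 (-0.46 ± 0.11; difference adjusted p = 5.46e-09), all of which rose in MDA-MB-231. HLA-B (-0.14 ± 0.057 in HCC1806, adjusted p = 0.195) and B2M (-0.019 ± 0.037, adjusted p = 0.894) were not called in HCC1806, and their differences were called (0.72 ± 0.078 and 0.56 ± 0.098, adjusted p = 4.63e-11 and 0.00169). LTBP1 (0.93 ± 0.46 in HCC1806, adjusted p = 0.341) and follistatin, FST (-0.60 ± 0.087), had effects of the same sign in both lines, and their differences were not called (adjusted p = 0.938 and 0.953). By list, 5 of 16 class I genes, 9 of 17 proteases and 8 of 29 integrin and laminin genes had the larger value in MDA-MB-231, with 0, 0 and 1 the smaller. Other lists went the other way. Of 28 chaperone genes 0 had the larger and 5 the smaller value, of 78 cytosolic ribosomal protein genes 1 and 7, and of 27 Hippo pathway genes 2 and 4. Of 39 interferon-stimulated genes none differed. Of the 113 named genes tested in both lines, 64 differed, but these were picked on their change in MDA-MB-231, so the count is a description.

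**Figure D5:**
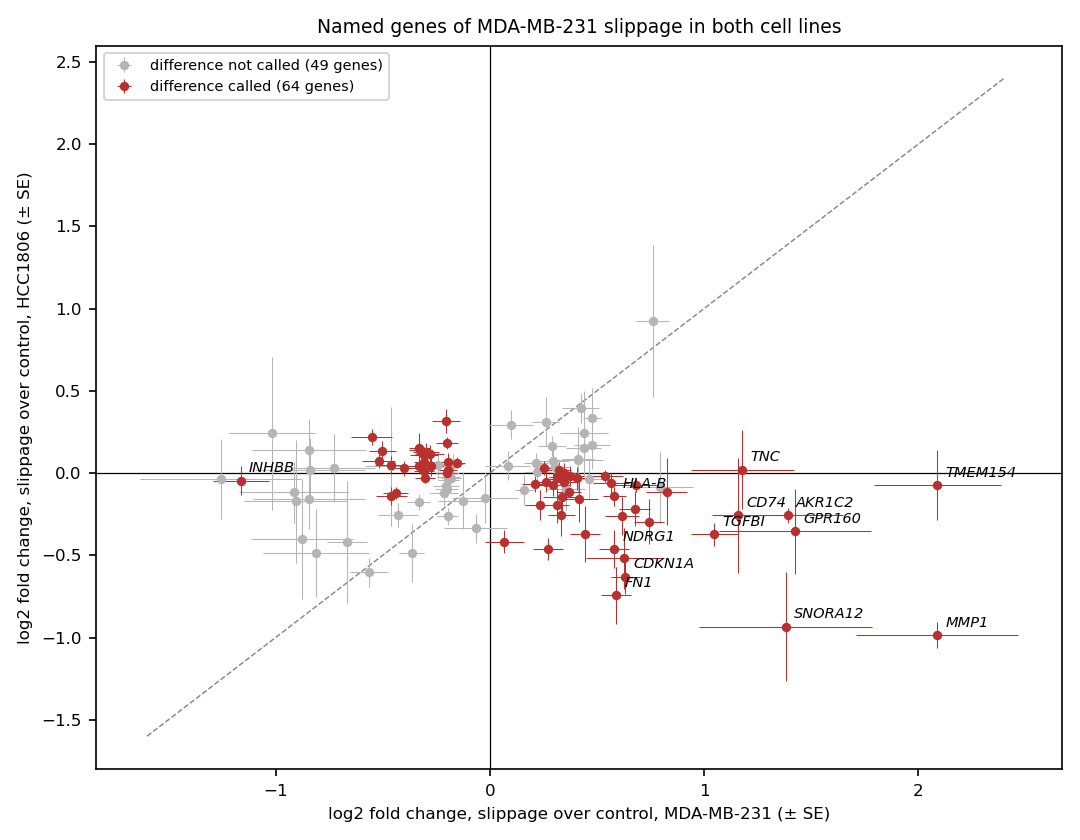
Log2 fold change of slippage over control in MDA-MB-231 (horizontal) and HCC1806 (vertical) for the 113 named genes tested in both lines, with standard errors as bars, red where the difference between the lines was called (64 genes) and a dashed line of equal effects. MMP1, CDKN1A and FN1 lie in the lower right, higher in MDA-MB-231 and lower in HCC1806.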

How the data were processed

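The members of each gene list, the lead genes and the lists themselves were chosen with earlier results of these data known. RNA was read by TAGseq in 24 libraries, of which the 12 of MDA-MB-231 and the 6 slippage and control libraries of HCC1806 bear on the results; each held at least 2455707 estimated counts. The authors deposited estimated counts per gene and TPM per gene, and the submitters' processing notes name STAR, Salmon and GRCh38, with no versions or strand setting. Without a strand setting, overlapping and antisense genes cannot be told apart. Estimated counts were rounded to whole numbers (4.41% were not whole). Genes were filtered with filterByExpr, scaled by TMM and tested with edgeR 4.0.16 (robust quasi-likelihood, R 4.3.3) in 1 fit of the 12 MDA-MB-231 libraries, in a fit of all 24 for the difference between lines, and in a fit of HCC1806 alone, with Benjamini-Hochberg adjustment. Standard errors are the fold change divided by the square root of F. Alternatives were DESeq2 1.42.0, limma 3.58.1 on log2(TPM + 0.1) and log2(TPM + 1), other scaling and filters, thinned counts, a replicate block and left-out libraries. Named genes were the 15 called genes with the largest fold change in each direction, with mean log2 CPM of at least 2 and non-overlapping groups. That mean was taken over all libraries of the fit. Also named were up to 4 called members per list by adjusted p, 6 in each direction for the other comparisons, and 10 fixed genes of doubling biology. Further list members, window genes and the MHC promoters and motifs were chosen after their values were seen. Some genes that these rules name are not reported here. Gene positions and promoters came from RefSeq on GRCh38.p14, which placed 11162 tested genes. The 10 Mb windows and the MHC class II list were added after the data were seen. The edgeR fits were tested on simulated data.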

Additional observations from a re-analysis of the deposited data

Results flagged for a closer look

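The slippage effect differed between the lines in 445 genes by edgeR's interaction test with Benjamini-Hochberg adjustment, and the genes below are among those that lead a comparison or were fixed by name. On the log2 scale, the effect in MDA-MB-231 exceeded that in HCC1806 by 3.07 for MMP1, 2.16 for TMEM154, 1.65 for AKR1C2, 1.42 for CD74, 1.26 for CDKN1A and 1.16 for TNC. The difference was 1.77 for GPR160 and 2.31 for the small nucleolar RNA SNORA12, both at a few CPM in MDA-MB-231. MMP1, TMEM154 and AKR1C2 also stood at a few CPM in MDA-MB-231 control, and AKR1C2 shares near-identical sequence with its neighbours. For MYC, which was not called against control in MDA-MB-231, the difference was 0.48. INHBB differed by -1.12.

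Among the genes picked on the difference itself, SPANXB1 differed by 4.78, where HCC1806 had 0.70 CPM in control and 0 in slippage, so that its size rests on the HCC1806 floor, and the call was lost in 9 alternatives. AGPAT4 differed by 2.47, a call lost in limma on TPM with either pseudocount, and read 7.96 and 8.06 CPM in MDA-MB-231 control and slippage. STON2 differed by 2.36, a call lost in 13 alternatives. ALPP, a placental alkaline phosphatase with near copies, differed by -2.63, from 2.52 CPM in MDA-MB-231 control to 0.48 CPM in slippage, and kept its call in all alternatives that gave an adjusted p. FOXO3B differed by -2.22, a call lost in 6 alternatives (adjusted p = 0.27 in edgeR without MDA-MB-231 control replicate 3), and its MDA-MB-231 libraries overlapped. ANKRD18B differed by -1.91, a call lost in 10 alternatives, and adjusted p was 0.178 in edgeR without MDA-MB-231 control replicate 3 and 0.155 without slippage replicate 3. CASZ1 differed by -1.24 and ARMC5 by -1.17, calls lost in 5 and 3 alternatives. STON2, ALPP, FOXO3B and ANKRD18B had too few counts to be tested in MDA-MB-231 alone and entered the fit of all 24 libraries through HCC1806. Their means in slippage were 56.8, 34.5, 10.9 and 36.1 CPM in HCC1806, against 1.69, 0.48, 0.75 and 0.66 CPM in MDA-MB-231. The size of these 4 differences therefore rests on MDA-MB-231 values near the floor, also where the call was kept.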

How the results depend on the processing

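Slippage against control gave 706 calls, and 343 in DESeq2, 161 in limma on log2(TPM + 0.1) and 169 on log2(TPM + 1). With 1 library left out in turn it gave 370 to 604 calls, with the higher share moving from 52.8% to 63.1% without control replicate 3. Against fusion, DESeq2 called 1210 genes and limma 1144 above and 296 below fusion (pseudocount 0.1), where the median over all tested genes was 0.091. A left-out library gave 1472 to 1824. Against cytokinesis failure, DESeq2 called 173, limma 65 (pseudocount 0.1; 57 higher, 8 lower) and 68 (pseudocount 1; 60 higher, 8 lower), the fit of these groups alone 186 and a left-out library 212 to 302. For the difference between lines, DESeq2 called 284 (167 higher, 117 lower), limma 189 (pseudocount 0.1; 130 higher, 59 lower) and 267 (pseudocount 1; 184 higher, 83 lower), and a left-out library gave 305 to 488. Fewer samples were fitted when a library was left out; the cause of the other shifts was not tested.

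Of the 126 named called genes, 53 kept their call under every alternative that gave an adjusted p, 73 lost it under at least 1, most often on log2(TPM + 0.1) (68), and none turned. Genes that were not called turned sign near 0. PLK4 turned to 0.13 with thinned counts and 0.034 without both noisier libraries, and ranged from -0.11 to 0.032 with 1 library left out (0.012 without control replicate 3 and 0.0026 without slippage replicate 1). CCNE1 turned to 0.074 with thinned counts and KIFC1 to -0.043 without slippage replicate 1, in a range up to 0.19 over the left-out libraries.

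The same replicate numbers did not pair the samples (correlations of same-numbered slippage and control deviations of 0.0021, 0.088 and 0.026). With the replicate number as a block, there were 585 calls against control, 1796 against fusion, 278 against cytokinesis failure and 392 between the lines. On simulated data for slippage against control (11291 genes, 100 changed at each size), 50 changes of 0.5 and 77 of 1 on the log2 scale were recovered, so smaller differences can be missed at this depth.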
